A study of Mus musculus with 2 samples.

Results

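The *S100* genes encode a family of small proteins, most of which bind calcium. Of these genes 6, *S100a4*, *S100a6*, *S100a8*, *S100a9*, *S100a10* and *S100a11*, were followed here through single-cell transcriptomes of mouse acute myeloid leukemia driven by the *MLL-AF9* fusion. They were chosen by symbol from the 27998 genes counted, 17 of which belong to the *S100* family. The leukemias came from *Kat2a* Flox/Flox mice that carried no Mx1-Cre allele (WT) or 1 Mx1-Cre allele (KO). Mx1-Cre is induced by interferon in hematopoietic and other cells, and both genotypes received pIpC. Bone marrow was taken 4 to 6 weeks later, depleted of lineage-positive cells, transduced with *MLL-AF9* by retrovirus together with a YFP reporter, and transplanted into lethally irradiated recipients. Terminal leukemias, 5 WT and 4 KO, were frozen, thawed, pooled by genotype and sorted for live YFP+ singlets, and each pool gave 1 droplet library of 3′ tagged transcripts. Animals cannot be told apart within a pool. With 1 library per genotype no difference could be tested against biological spread, and every interval given is a 95% interval of counting error only.

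Most S100 proteins bind calcium through EF-hand loops and act as dimers that change shape and dock onto partner proteins. S100A8 and S100A9 pair into calprotectin, a protein that fills the cytoplasm of neutrophils, is also made by monocytes, and is released at sites of infection, where it binds metal ions and signals through innate receptors. S100A4 binds non-muscle myosin, S100A6 (calcyclin) binds calcyclin-binding protein, and S100A10 and S100A11 each bind an annexin at membranes. All 6 genes lie on mouse chromosome 3 in the annotation used (GENCODE M21, GRCm38, the same assembly as mm10). *S100a4*, *S100a6*, *S100a8* and *S100a9* fall within 92.0 kb, with *S100a8* (3:90668978-90670035, plus strand) and *S100a9* (3:90692632-90695721, minus strand) 22.6 kb apart and transcribed towards each other. *S100a11* (3:93520488-93526287) and *S100a10* (3:93555080-93564643) lie 2.82 Mb further on and 28.8 kb from each other. Each gene has at most 3 exons in its annotated transcripts, and the 3′ tags are read from the last one.

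The promoters of the calprotectin pair are shown because these 2 genes carried most of the *S100* transcripts, and that of *S100a4* because it is a rare member with the same core motif. The sequences are the 100 bases before the start site in RefSeq (GRCm38.p6), 5′ to 3′ on the strand of the gene, with TATAAA in capitals. They cover chr3:90668971-90669070 (plus strand), chr3:90695722-90695821 (minus strand) and chr3:90603670-90603769 (plus strand).
S100a8: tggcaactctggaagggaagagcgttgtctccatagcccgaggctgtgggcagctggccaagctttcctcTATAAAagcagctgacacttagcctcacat
S100a9: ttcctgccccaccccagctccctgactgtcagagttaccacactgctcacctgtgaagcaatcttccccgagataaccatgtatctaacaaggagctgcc
S100a4: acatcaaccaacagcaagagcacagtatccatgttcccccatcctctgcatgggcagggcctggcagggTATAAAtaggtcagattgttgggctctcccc

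RefSeq sequences were found for 5 of the 6 genes, not for *S100a10*. TATAAA began 30 bases before the start in *S100a8* and 31 bases before it in *S100a4*. In *S100a9* the same letters began at the annotated start itself, just past the stretch shown. Over a window of 150 bases, from 100 before the start to 50 from it, 3 of the 5 genes held TATAAA, against 6.94% of 32851 promoters searched on both strands. The letters of a C/EBP core, TTNNGNAA, were in none of the 5 windows and in 20.6% of all, and GAGGAA, a core bound by PU.1, was in 2 of the 5 (*S100a4* and *S100a8*) and in 15.7% of all. These matches describe letters only, and no measurement of binding was used.

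The libraries held 4069 cells labelled WT and 4240 labelled KO. The study states a limit of 500 genes per cell. That limit, applied here to the file, kept 3866 and 3545 cells, and the study's own set of cells, which differs in number, was not used. The kept cells held 11669427 and 7920256 UMIs (unique molecular identifiers, each counting 1 captured transcript). A kept cell had a median of 2588.5 UMIs if labelled WT and 1884 if labelled KO. Cells with fewer than 500 genes, called low-gene cells here, made up 4.99% of the library labelled WT and 16.4% of that labelled KO. *Kat2a* itself had 142 UMIs in kept cells labelled WT and 759 in those labelled KO, or 12.2 and 95.8 CPM (counts scaled to a total of 1000000 UMIs). This goes against the label. The study states that a rearranged transcript persists after excision, so that 3′ tags cannot measure the knockout. It reports the loss of *Kat2a* expression from PCR assays within the excised region. Why the count was higher in the library labelled KO was not tested, and each library is named by its label. The libraries shared 28 barcodes. Leukemic identity rests on the YFP sort, and of the 12 markers of secondary granules and mature granulocytes, none was at 0 in either library. T cell markers had 12 and 6 UMIs in the kept cells labelled WT and KO.

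In kept cells the calprotectin genes stood far above the other members. *S100a8* reached 18878 CPM (18799–18957) in the library labelled WT and 18009 CPM (17916–18103) in that labelled KO, and *S100a9* 14445 (14376–14514) and 10345 (10274–10416). Together they took 3.33% and 2.84% of all UMIs. *S100a11* followed with 1447 and 1223 CPM and *S100a6* with 810 and 479 CPM. *S100a10* had 161 and 151 CPM, and *S100a4*, the rarest member, 37.5 and 33.3 CPM. A 3′ library counts 1 tag per transcript, so these levels can be set beside each other without a correction for length. The order of the 6 genes was the same in both libraries, and no 2 neighbours in it had overlapping intervals.

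**Figure D1:**
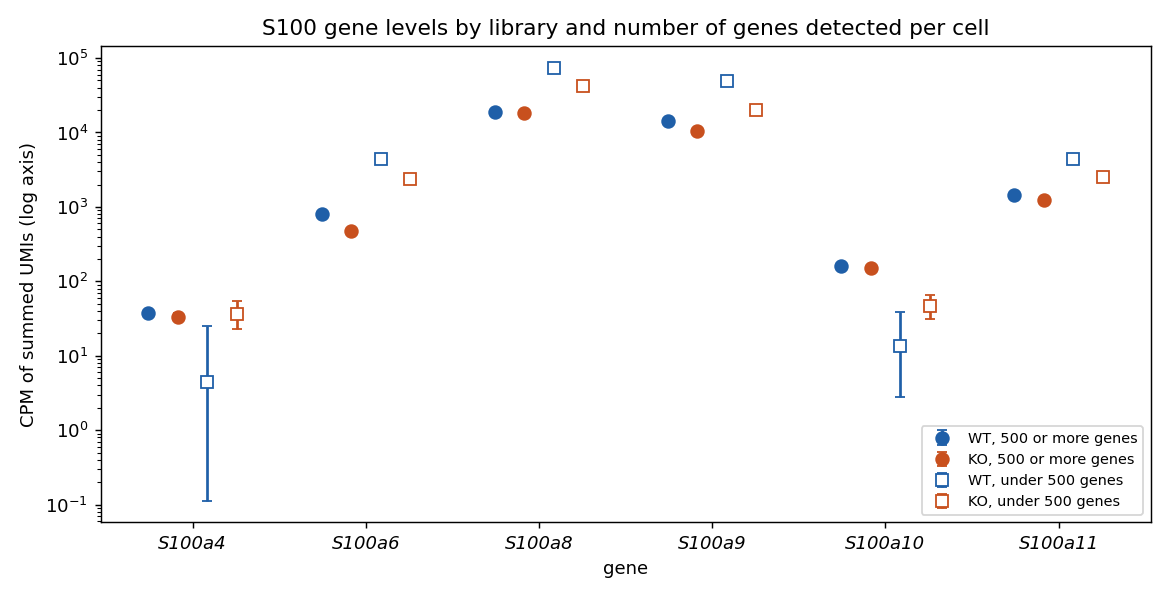
CPM of summed UMIs (log axis) for the 6 *S100* genes in cells with 500 or more genes (filled circles) and under 500 genes (open squares) of the libraries labelled WT (blue) and KO (orange). Bars are exact 95% Poisson intervals. *S100a6*, *S100a8*, *S100a9* and *S100a11* were higher in low-gene cells of both libraries, while *S100a10* was lower, and the long bar of *S100a4* comes from 1 UMI.

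The spread from cell to cell was wide. With every cell thinned to 1000 UMIs, leaving out 66 and 194 shallower kept cells, the median *S100a8* count was 7 (labelled WT) and 10 (labelled KO), with a 90th percentile of 69 and 55. For *S100a9* the medians were 6 and 5, and the 90th percentiles 51 and 32. At the 25th percentile both genes were at 0. The 10% of cells with most *S100a8* held 39.3% and 36.8% of its UMIs, and for *S100a6* 55.8% and 67.2%. *S100a11* was the most even member, with its top 10% of cells holding 33.6% and 35.3%. *S100a10* had a UMI in 10.3% and 9.58% of thinned cells, and *S100a4* in 4.16% and 2.86%. At each cell's own depth a UMI of *S100a4* was seen in 6.57% of kept cells of both libraries together.

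The question the study asked was how loss of *Kat2a*, a histone acetyltransferase, alters transcript levels and their variability between leukemia cells. All 6 members were lower in the kept cells labelled KO, as were 39.8% of 2737 genes with a UMI in 10% or more of kept cells. For *S100a4*, *S100a8* and *S100a10* the direction was not stable. *S100a6* differed most, with a log2 ratio of KO over WT of −0.76 (−0.81 to −0.70), or 1.69-fold lower. It was followed by *S100a9* at −0.48 (−0.49 to −0.47) and *S100a11* at −0.24 (−0.28 to −0.21). *S100a8* differed little, at −0.07 (−0.08 to −0.06). The intervals of *S100a4*, −0.17 (−0.40 to 0.05), and *S100a10*, −0.09 (−0.20 to 0.02), included 0. Only *S100a6* was lower by 1.5-fold or more. Of the 2737 genes, which include all members but *S100a4*, 3.43% were lower by that much and 3.54% higher, and the median log2 ratio was 0.07. The share lower was 5.25% among genes found in 5% of kept cells and 16.5% among all genes with a UMI in both libraries. The 2 calprotectin genes summed gave −0.23 and the other 4 summed −0.38.

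These differences moved with the cells compared. *S100a6* lay at −0.20 among cells with 1000 or more genes and at −1.31 among 2784 cells per library matched on total UMIs. The 12 clusters described further on made up unlike shares of the kept cells. Clusters 5 and 3, highest in *S100a6*, held 14.1% and 12.1% of those labelled WT and 4.06% and 6.74% of those labelled KO. Clusters 2 and 8, with less *S100a6*, held 3.08% and 3.05% labelled WT and 17.8% and 14.6% labelled KO. Cluster 4, also with less, held 13.3% labelled WT and 5.25% labelled KO. With the clusters given the same weights in both libraries, *S100a6* came to −0.17, whereas *S100a9* stayed at −0.45. *S100a8* came to −0.0019 with the same weights and to 0.0005 in every cell, kept or not. Within clusters *S100a8* was lower in the library labelled KO in 4 of 12, with 6 intervals above 0. With the same weights the direction turned for *S100a4* (0.26) and *S100a10* (0.19). *S100a10* also turned among cells with 1000 or more genes (0.04), and within clusters it was lower in the library labelled KO in 2 of 12, with 4 intervals above 0. Over the alternatives run, between 0 and 3 of the 6 members were lower by 1.5-fold or more. No share of all genes lower by as much is given for these alternatives, so the counts cannot be judged against one.

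Low-gene cells, which the study's limit leaves out, were rich in 4 of the 6 members. Calprotectin transcripts took 12.3% of the UMIs of low-gene cells labelled WT and 6.28% of those labelled KO. *S100a8* stood at 73336 CPM there in the library labelled WT against 18878 in kept cells, a log2 ratio of 1.96 (1.93 to 1.98), and at 42483 against 18009 CPM in that labelled KO, 1.24 (1.22 to 1.26). *S100a9* was at 49648 CPM (log2 ratio 1.78) and 20309 CPM (0.97). The steepest ratio was that of *S100a6*, at 4392 CPM (2.44) and 2357 CPM (2.30), and *S100a11* was at 4397 CPM (1.60) and 2557 CPM (1.06). Of the 6 members 4 were thus higher by 1.5-fold or more in low-gene cells of each library. Of the 2737 genes 8.99% (labelled WT) and 8.44% (labelled KO) were higher by as much.

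The remaining members did not share this pattern. *S100a10* had 3 UMIs in the 203 low-gene cells labelled WT, or 13.4 CPM, and 31 UMIs in the 695 labelled KO, or 46.6 CPM, with log2 ratios to kept cells of −3.58 (−5.86 to −2.03) and −1.70 (−2.26 to −1.18). *S100a4* had 1 UMI (4.48 CPM) and 24 UMIs in 15 cells (36.1 CPM), with ratios of −3.07 (−8.37 to −0.58) and 0.11 (−0.55 to 0.72). The second ratio was −1.90 without the 10 cells with most *S100a4* UMIs and −0.58 at 500 UMIs per cell. Lower by 1.5-fold or more were 54.1% of the 2737 genes in the library labelled WT and 41.2% in that labelled KO.

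The low-gene class also differed between the libraries. *S100a9* was 2.44-fold lower in low-gene cells of the library labelled KO (log2 ratio −1.29, −1.33 to −1.25), *S100a6* 1.86-fold lower, *S100a8* 1.73-fold lower and *S100a11* 1.72-fold lower. These 4 of 6 members stood beside 8.18% of the 2737 genes lower by 1.5-fold or more. *S100a4* (3.01, 0.39 to 8.37) and *S100a10* (1.79, 0.11 to 4.15) were higher by 1.5-fold or more, on few UMIs. Of the 2737 genes 34.0% were higher by as much, and the median log2 ratio of these 2737 genes was 0.30.

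**Figure D2:**
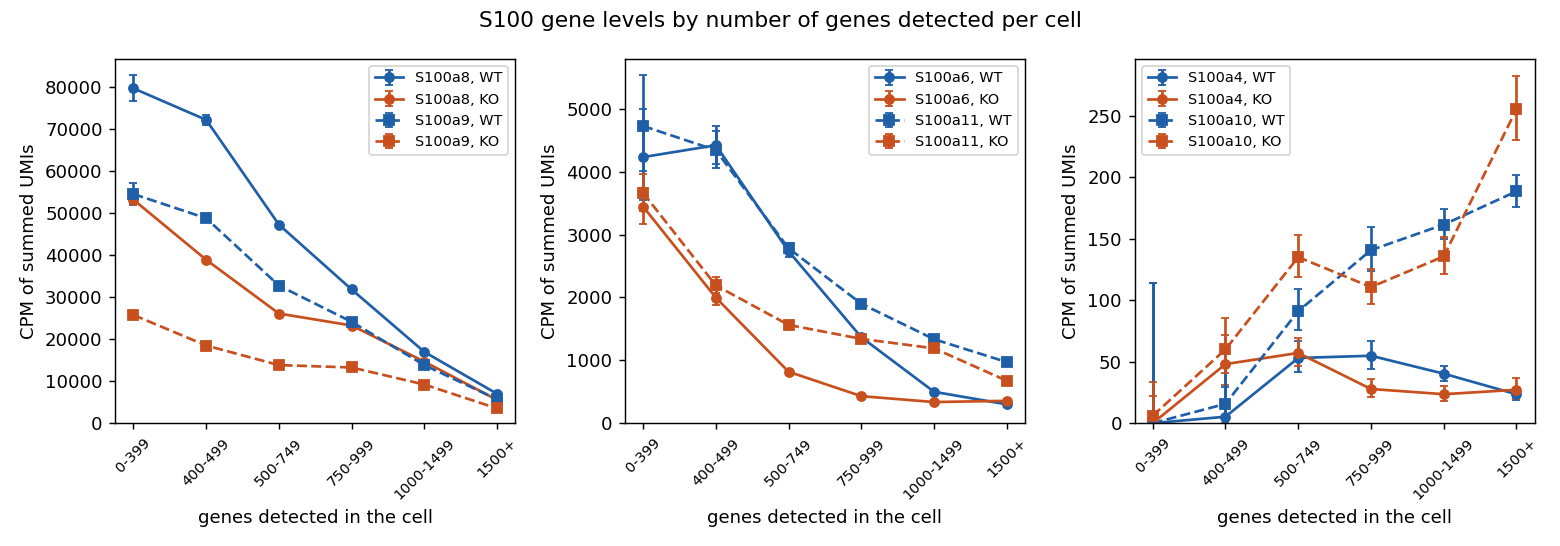
CPM of summed UMIs (linear axes from 0) of each *S100* gene against the number of genes detected in the cell, with exact 95% Poisson intervals, for the libraries labelled WT (blue) and KO (orange). *S100a8* went from 79750 to 6977 CPM and from 53232 to 5533 CPM between the lowest and the highest bin, while *S100a10* was highest in cells with 1500 or more genes.

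Across bins of detected genes the change was graded and not a step at the limit of 500. *S100a8* went from 79750 CPM in cells with fewer than 400 genes to 47284 with 500 to 749 and 6977 with 1500 or more in the library labelled WT. The matching values were 53232, 26108 and 5533 CPM in the library labelled KO, below the other library in each of these bins. *S100a10* ran the other way, from 0 UMIs to 189 CPM and from 1 UMI to 255 CPM. The number of genes and the *S100* share are not independent measures, because a cell whose UMIs are concentrated on few transcripts shows fewer genes. When the same numbers of cells were taken by fewest total UMIs in place of fewest genes, the summed calprotectin log2 ratio was 0.61 and not 1.88 in the library labelled WT, and 0.11 and not 1.15 in that labelled KO.

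Other granulocyte transcripts moved with the 4 members that were higher in low-gene cells. The 12 granulocyte markers, summed, took 46260 CPM in kept and 128274 CPM in low-gene cells of the library labelled WT, and 48862 and 132110 CPM in that labelled KO, and 12 of 12 were higher in low-gene cells of both. The 5 primary granule genes, among them *Mpo* and *Elane*, were at 14724 and 1340 CPM and at 13103 and 2103 CPM. The 6 erythroid markers were at 208 CPM in kept cells and 4.48 CPM (1 UMI) in low-gene cells of the library labelled WT, and at 537 and 4839 CPM in that labelled KO, where 2 low-gene cells held 3 or more hemoglobin UMIs. Without hemoglobin-positive cells the pair's low-gene log2 ratio labelled KO was 1.14. Mitochondrial transcripts made up 0.37% of kept and 0.27% of low-gene UMIs in the library labelled WT, and 0.47% and 0.37% in that labelled KO. The similar sums of the granulocyte list in low-gene cells of both libraries rested on *Ngp*, at 74883 CPM (labelled WT) and 92454 CPM (labelled KO). Of the 12 markers 9 were lower in low-gene cells labelled KO, 4 of them by 1.5-fold or more, among them *Lcn2* (13074 and 6401 CPM) and *Retnlg* (2748 and 1615 CPM). *Ltf* (2443 and 3474 CPM) and *Ly6g* (112 and 117 CPM) were, like *Ngp*, higher there. Without *Ngp* the list summed to 53391 and 39655 CPM, lower in the library labelled KO, as were *S100a6*, *S100a8*, *S100a9* and *S100a11*. *S100a4* and *S100a10* were higher in that class, on few UMIs. In low-gene cells with 15% or more of their UMIs on these markers, the pair stood at 135430 CPM in 76 cells labelled WT and 84730 CPM in 311 labelled KO. In kept cells with such a share it stood at 101916 and 74472 CPM. The part of cell composition in the differences between libraries was not tested beyond these values.

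To see which cells carried each member, kept cells were divided into 12 clusters from which every *S100* gene was left out. Clusters 1 (led by *Ngp*, *Lcn2* and *Camp*) and 5 (led by *Ltf*, *Mmp9* and *Lcn2*) are granulocyte-like by their markers, cluster 4 (*Elane*, *Mpo*, *Ctsg*, *Prtn3*) is primary granule progenitor-like and cluster 9 (*Irf8*, *Ly86*, *Pld4*) is monocyte-like. The others are called by number and leading genes. Monocyte markers, among them *Irf8* and *Ly86*, were also raised in clusters 2, 3, 10 and 12. *S100a8* was highest in cluster 5, at 70422 CPM in the library labelled WT and 52924 in that labelled KO, then in cluster 1 (45233 and 43694) and in the proliferating clusters 6 (led by *Rrm2*, with *Camp* and *Ngp*; 37943 and 41143) and 7 (led by *Ube2c* and *Ccnb1*; 28690 and 32265). It was intermediate in cluster 8 (*Dusp2*, *Fcnb*), at 16278 and 21331 CPM, in cluster 11 (*Rrm2*, *Elane*, *Mpo*), at 11009 and 11735, and in cluster 4, at 5540 and 5767. *S100a9* had the same order over these 7 clusters. Both were lowest in clusters 2 (*Ly6e*, *H2-DMa*), 3 (*Ccl6*, *Apoe*), 9, 10 (*C1qbp*, *Srm*) and 12 (*Irf8* with mitotic genes), where *S100a8* lay between 622 and 1663 CPM in the library labelled WT and between 717 and 1607 CPM in that labelled KO. Highest and lowest cluster differed 113-fold and 73.9-fold for *S100a8*.

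Transcripts released by broken cells can reach any droplet. Their amount was not measured, and no cluster here can be taken to lack the calprotectin genes. At 1000 UMIs all cells of cluster 5 had an *S100a8* UMI. In cluster 9 a UMI was found in 31.2% (26.5–36.1) and 41.0% (32.7–49.7) of cells, at a median own depth of 2667.5 and 2189 UMIs, against 1757.5 and 1487 in cluster 5. The ratio of *S100a9* to *S100a8* in cluster 9 was 0.81 and 0.49, where the whole library of kept cells had 0.77 and 0.57. No expression is read from these low shares.

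The other 4 members were distributed differently. *S100a6* was highest in cluster 5, at 3868 and 2645 CPM, and next in cluster 3, at 1950 and 1621 CPM. It stood at 1020 and 917 CPM in cluster 1 and at 813 and 1125 CPM in cluster 9, and so was abundant both where calprotectin was highest and where it was near its lowest. *S100a10* had its highest levels in clusters 12 (659 and 669 CPM), 9 (607 and 772) and 3 (322 and 489). In clusters 1, 5, 6 and 8 it ran from 0 UMIs, in cluster 8 of the library labelled WT, to 21.0 CPM, in cluster 1 of that labelled KO. *S100a4* was highest in clusters 3 (201 and 297 CPM) and 9 (106 and 158). *S100a11* was found in all clusters within a narrow range, 692 to 3575 CPM and 446 to 2751 CPM, a 5.16-fold and 6.17-fold difference, with its peak in cluster 5.

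**Figure D3:**
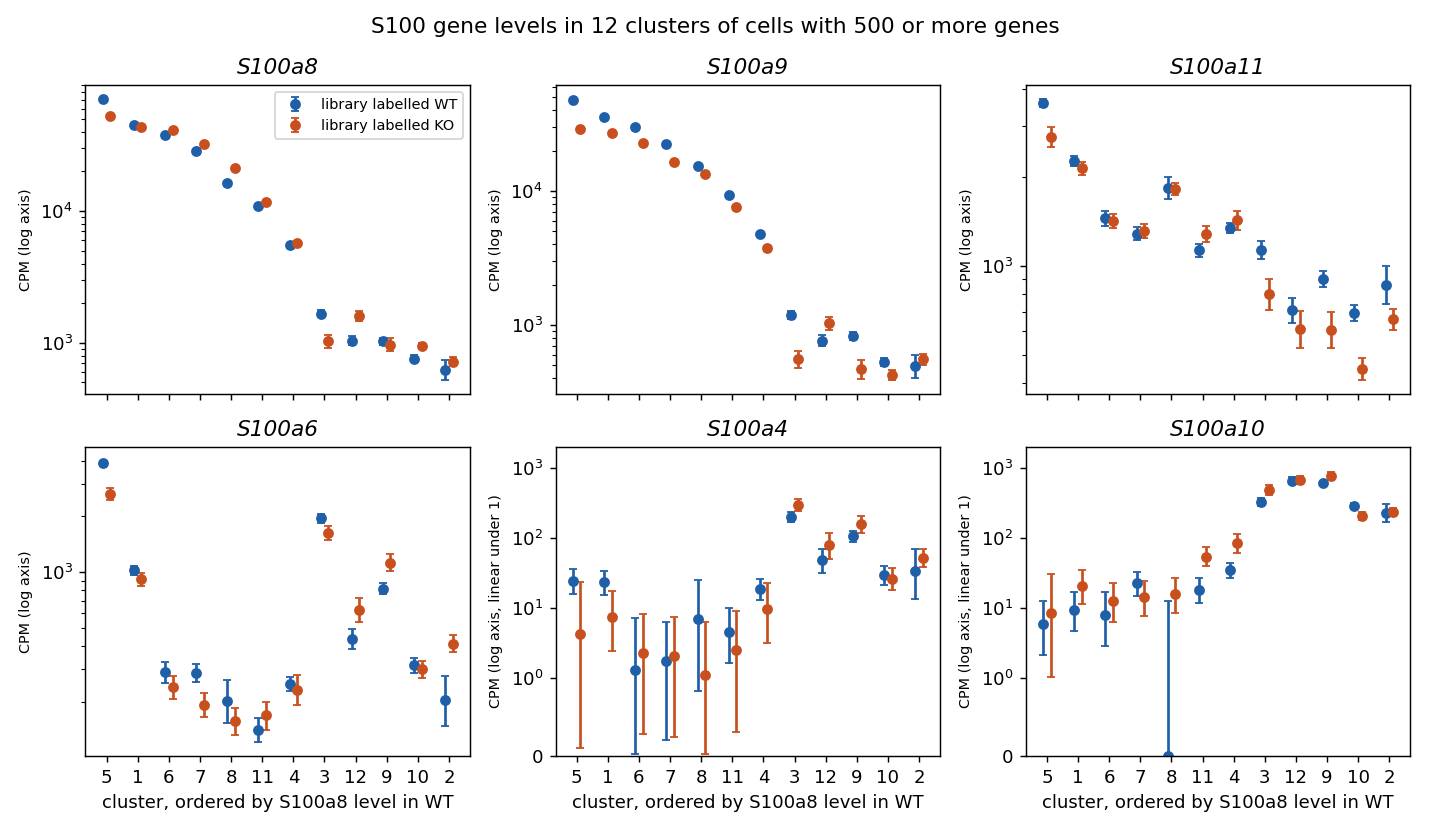
CPM of each *S100* gene in 12 clusters of kept cells, ordered by the *S100a8* level in the library labelled WT, for the libraries labelled WT (blue) and KO (orange), with exact 95% Poisson intervals on log axes (linear under 1 for *S100a4* and *S100a10*). *S100a8* and *S100a9* decline together from cluster 5 to cluster 2, *S100a10* and *S100a4* are highest at the right, and *S100a6* has peaks in clusters 5 and 3.

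Among the 7 clusters with more than 5000 CPM of *S100a8* in both libraries, a split made after the levels were seen, *S100a9* was lower in the library labelled KO in 7 of 7, each with an interval below 0 and with log2 ratios between −0.72 and −0.19. In cluster 5 it stood at 48124 and 29203 CPM (log2 ratio −0.72, −0.76 to −0.68) and in cluster 1 at 35727 and 27139 (−0.40). In the 5 clusters with low levels, where free transcripts were not subtracted, it was lower in 3, and no difference between their cells is read from that. *S100a8* was lower in clusters 1 (−0.05) and 5 (−0.41) of these 7. It was higher in clusters 6 (0.12), 7 (0.17), 8 (0.39) and 11 (0.09), each with an interval above 0, and in cluster 4 (0.06), whose interval included 0. *S100a6* was lower in 8 of 12, among them cluster 5 (−0.55), and higher in cluster 9 (0.47) and cluster 2 (1.01). *S100a11* was lower in 9 of 12, between −0.64 and 0.18.

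The balance within the calprotectin pair differed between the libraries. There were 0.765 *S100a9* UMIs for each *S100a8* UMI among kept cells labelled WT and 0.574 among those labelled KO, and the log2 of KO over WT was −0.41 (−0.43 to −0.40). In low-gene cells the values were 0.677 and 0.478 (−0.50). In the 7 clusters with more than 5000 CPM of *S100a8* the ratio was lower in the library labelled KO in 7 of 7, each with an interval below 0, at 0.683 to 0.938 (labelled WT) and 0.507 to 0.650 (labelled KO). In the other 5 clusters it was lower as well, with 3 intervals below 0. Free RNA was neither measured nor subtracted, so these 5 are not read as separate support. This ratio uses 2 genes of the same cells, so that it does not depend on how the libraries are scaled.

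Cell by cell, the difference lay in a tail as well as in the middle of the distribution. Among kept cells with 20 or more UMIs of the pair, the median share of *S100a9* was 45.2% in 2111 cells labelled WT and 40.0% in 1888 labelled KO, while the 10th percentile was 31.2% and 14.6%. The standard deviation of the share was 12.1 and 15 percentage points, where counting alone would give 4.83 and 5.59. A share under 10%, a limit set after the distribution had been seen, was found in 47 of 2111 kept cells labelled WT, 2.23% (1.64–2.95), and in 148 of 1888 labelled KO, 7.84% (6.67–9.14). In low-gene cells it was found in 5 of 188 and in 80 of 506, or 2.66% (0.87–6.10) and 15.8% (12.7–19.3). Within 5 points of the limit lay 45 and 97 kept cells. The cells below it made up 10.5% of such cells in cluster 5 of the library labelled KO, 9.05% in cluster 6, 8.96% in cluster 7 and 8.81% in cluster 1. In the library labelled WT these clusters had 4.44%, 0.38%, 0.997% and 1.91%. Clusters 4 and 8 had 8.62% and 5.76% labelled KO against 1.96% and 0% labelled WT. Cluster 11 had 2.48% labelled KO and 2.16% labelled WT.

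**Figure D4:**
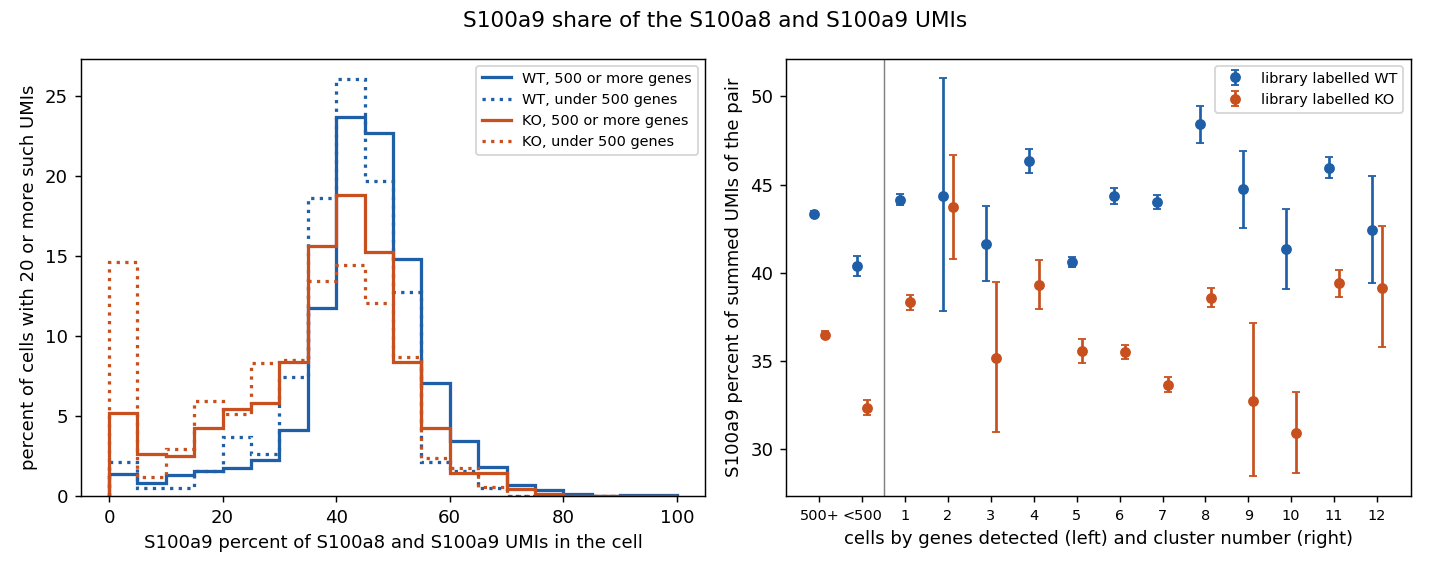
Left, distribution over cells of the *S100a9* percent of *S100a8* and *S100a9* UMIs, in steps of 5 points, for cells with 20 or more such UMIs, by library and number of genes. Right, the same percent over summed UMIs with exact binomial 95% intervals in cells with 500 or more and under 500 genes and in 12 clusters. Of the cells shown at left, 14.6% of low-gene and 5.19% of kept cells labelled KO (orange) lie under 5%, against 2.13% and 1.42% labelled WT. At right, the library labelled KO lies below that labelled WT in each of the 7 clusters with more than 5000 CPM of *S100a8*. In the other 5 clusters free RNA was not subtracted.

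These cells with much *S100a8* and little *S100a9* had a median of 162.5 and 88 UMIs of the pair against 161 and 92 in the other cells with 20 or more. They were also shallower, with medians of 722 and 570 genes against 932 and 757, and 1908 and 1315.5 UMIs against 2461 and 1808.5. In the library labelled KO 80 of the 228 were low-gene cells. Their higher *S100a8* (57609 against 35667 CPM in the library labelled WT, 63612 against 32554 in that labelled KO) follows from picking on a low *S100a9* share at like pair UMIs. *S100a6* was at 3208 against 1098 and 1496 against 636 CPM, and *S100a11* at 2761 against 1983 and 1947 against 1779 CPM, and both genes were also higher in cells with few genes. Among kept cells alone *S100a6* was at 2870 against 985 and 934 against 435 CPM and *S100a11* at 2591 against 1895 and 1649 against 1634 CPM, where the picked cells still had fewer genes (752 and 670 against 985 and 834). The part of gene number in these values was not tested further. Among 935 genes outside the family with 20 or more UMIs in such cells of both libraries, those lower by most in both were *Stfa1* (408 against 2014 CPM, and 118 against 965), *Gm5483* (424 against 1372, and 84.5 against 519) and *BC100530* (1867 against 5167, and 457 against 2326). *Stfa1* encodes a stefin A, a protease inhibitor of myeloid cells, and has near-identical copies among which UMIs may be split. The gene higher by most in both was *Ltf*, lactoferrin of the secondary granules, at 1655 against 575 and 2361 against 881 CPM. Cluster 5, led by *Ltf*, held 24 of the 47 picked kept cells labelled WT and 540 of the 2111 they were picked from. Labelled KO, it held 15 of 148 and 143 of 1888. *Ltf* was also higher in low-gene than in kept cells, at 2443 against 288 CPM labelled WT and 3474 against 324 CPM labelled KO. The part of cluster and gene number in this list was not tested. The cells were picked by their *S100a9* share, and the gene list is a description of them.

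Across cells the 6 genes did not all vary together. Over 3800 cells labelled WT and 3351 labelled KO, thinned to 1000 UMIs, Spearman's rho of *S100a8* with *S100a9* was 0.89 and 0.82, and that of *S100a8* with *S100a11* 0.43 and 0.35. *S100a10* ran against *S100a8*, at −0.32 and −0.29, and correlated weakly with *S100a4*, at 0.10 and 0.18. *S100a6* and *S100a8* had a rho of 0.25 in the library labelled WT and 0.04 in that labelled KO. Cells of a library share a depth of sequencing and may share free RNA, and they are not replicates, so these are descriptions.

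**Figure D5:**
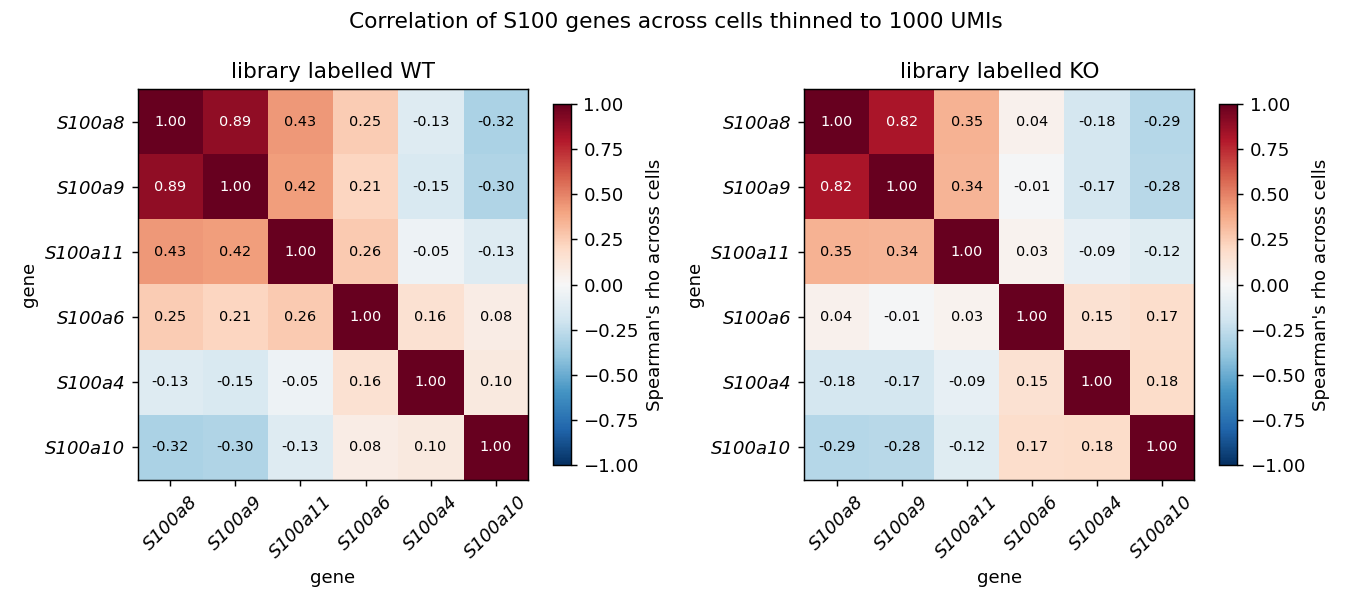
Spearman's rho between the 6 *S100* genes across kept cells thinned to 1000 UMIs, in the library labelled WT (left, 3800 cells) and that labelled KO (right, 3351 cells), from blue (−1) to red (1). *S100a8*, *S100a9* and *S100a11* form a block of positive values, and *S100a10* is negative with all 3.

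Outside the family, the genes most like *S100a8* were *Ngp* (rho 0.79 and 0.80), *Lcn2* (0.81 and 0.72) and *Camp* (0.70 and 0.72), which encode proteins of secondary granules, and the same 3 genes came first for *S100a9*. *S100a6* was most like *Lgals3*, galectin-3 (0.51 and 0.40), then *Lyz2* and *Ifitm6*. *S100a11* was most like *Pglyrp1* (0.38 and 0.32), a granule protein that binds peptidoglycan, then *Lcn2* and *Tmsb4x*. *S100a10* was nearest to *Tmsb10* (0.32 and 0.26), *Ctss* and *Crip1*, and *S100a4* to *Ctss*, cathepsin S (0.20 and 0.25), *Crip1* and *Lgals3*, at values too low in such sparse counts to carry weight.

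Variability between cells, the other quantity the study asked about, was compared by the coefficient of variation (CV) at 1000 UMIs. The CV of *S100a6* was 1.86 (labelled WT) and 2.60 (labelled KO), a log2 ratio of 0.49, and 97.4% of the 2737 genes had a smaller ratio. The median of the 2737 genes was 0.02, with 55.1% above 0. At each cell's own depth, which was lower in the library labelled KO, that median was 0.21, with 87.7% above 0. Within clusters the median log2 ratio of *S100a6* was −0.07. A CV depends on the mean, and the mean of *S100a6* was 1.16 and 0.55 UMIs per cell at 1000 UMIs. Its variance divided by its mean was 3.99 and 3.70, lower in the library labelled KO. The part of the lower mean in its CV ratio was not tested. *S100a8* (1.3 and 1.23) and *S100a9* (1.23 and 1.25) had nearly the same CV in both libraries, as did *S100a10* (3.80 and 3.74), and *S100a11* had 1.06 and 1.18. *S100a4* had 5.16 and 6.77, at a mean of 0.048 and 0.038 UMIs per cell. The burst frequency estimated from the mean and the excess variance was 0.39 and 0.20 for *S100a6*, 0.60 and 0.69 for *S100a8*, and 0.68 in both libraries for *S100a9*. It was 1.88 and 1.60 for *S100a11* and, on few UMIs, 0.168 and 0.052 for *S100a4*. For *S100a10* it was 0.119 and 0.138, but 0.146 and 0.130 at 1500 UMIs. The median log2 ratio of KO over WT over the genes with an estimate was −0.55 at 1000 UMIs. These estimates took the kept cells of all clusters together, so that differences between clusters enter them. They do not come from the promoter model that the study fitted, and are not set beside its values.

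Of the other 11 *S100* genes in the file, *S100a1* (139 and 196 CPM, log2 ratio 0.50) and *S100a13* (213 and 181 CPM, −0.23) had a UMI in 1% or more of kept cells, and the other 9 did not. Among 9 partners and receptors, *Anxa1*, the annexin partner of S100A11, had 1582 and 1134 CPM (−0.48), and in low-gene cells 6557 and 5042 CPM, the same direction as the calprotectin genes. *Anxa2*, the partner of S100A10, had 641 and 598 CPM (−0.10), *Myh9*, the myosin bound by S100A4, 39.2 and 23.0 CPM (−0.77), and *Cacybp*, the partner of S100A6, 143 and 183 CPM (0.36). *Ahnak*, a scaffold bound by S100A10, had 18.2 and 19.6 CPM (0.11, −0.20 to 0.41). Of the receptors, *Bsg* had 305 and 378 CPM (0.31). *Tlr4* had 20 and 12 UMIs, *Ager* 18 and 15, and *Cd36* 0 and 5. Of the 8 genes with a UMI in both libraries 1, *Myh9*, was lower by 1.5-fold or more and none higher, and for *Cd36* no ratio was computed. Among 5 myeloid transcription factors, *Cebpb* had 1936 and 1739 CPM (−0.15), *Spi1*, which encodes PU.1, 697 and 734 (0.07), *Cebpe* 529 and 506 (−0.06), *Stat3* 35.9 and 34.2 (−0.07) and *Cebpa* 25.1 and 20.7 (−0.28, −0.56 to 0.00). None of the 5 differed by 1.5-fold or more.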

How the data were processed

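Single-cell transcriptomes were measured in 2 pooled libraries, 1 per genotype. Per the labels, the authors used Cell Ranger 1.3.1 and build mm10, while the methods of the study name a later version of Cell Ranger, and which of them made the file could not be settled. The deposited matrix holds raw UMI counts per gene and cell, with no normalization by the authors. The library of each cell was taken from its barcode suffix, as the study's published analysis assigns it.

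From these counts, UMIs were summed by library and class of cells (500 genes as limit) and given as CPM with exact Poisson 95% intervals. Shares have exact Clopper-Pearson intervals, and log2 ratios exact conditional intervals; those of the *S100a9* to *S100a8* ratio are normal approximations. All cover counting error only. Clusters were found by k-means (scikit-learn 1.9.0, 12 clusters, 10 starts) on 20 principal components of 785 variable genes without *S100* genes. Depth ranged from 749 to 11944 UMIs per cell. Doublets were kept and no doublet caller was run; leaving out the 5% of cells with most UMIs was an alternative. The scripts were tested on simulated data. The 1.5-fold limit stands in for a test. Named genes are the members, the other family genes found in 1% of cells, preset partners and regulators, and the 3 genes most correlated with each member in both libraries. The genes leading each cluster, the markers given beside the members and the genes that set apart cells with little *S100a9* were named in addition, the last of these after their values were seen. The members and lists were chosen with earlier results of these data known.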

Additional observations from a re-analysis of the deposited data

Results flagged for a closer look

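*S100a4* and *S100a10* stood out because an effect ran one way in one group of cells and the opposite way in another. Low-gene against kept cells, *S100a4* had a log2 ratio of −3.07 in the library labelled WT and 0.11 in that labelled KO, so that KO minus WT was 3.18. The same 4 sums give 3.18 for its KO over WT ratio in low-gene minus kept cells. For *S100a10* the KO over WT ratio was 1.79 in low-gene and −0.09 in kept cells, a difference of 1.88. Without the 10 cells with most *S100a4* UMIs the ratio labelled KO was −1.90, and at 500 UMIs per cell −0.58, the same direction as labelled WT. Its interval at the values given, −0.55 to 0.72, included 0. These differences were not tested, and they rest on 1 *S100a4* UMI and 3 *S100a10* UMIs in low-gene cells labelled WT.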

How the results depend on the processing

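No paired analysis was possible because each genotype had 1 library, so replicates could not be left out either. The direction of both sums and of the *S100a9* to *S100a8* ratio was the same under every alternative run, and their size was not. The calprotectin pair, KO over WT at −0.23, was −0.17 in every cell, −0.38 and −0.27 thinned to 1000 and 1500 UMIs, −0.45 in cells matched on UMIs, −0.24 scaled without *S100* genes, −0.31 with median-of-ratios scaling, −0.18 with equal cluster weights and −0.22 without cells with 3 or more hemoglobin UMIs. The other 4 members, at −0.38, were −0.28, −0.59, −0.55 and −0.70 in the first 4 of these, −0.45 with median-of-ratios scaling, −0.11 with equal weights and −0.18 in cells with 1000 or more genes. The count of members lower by 1.5-fold or more, 1, was 0 in every cell, in cells with 1000 or more genes and with equal weights, 2 at both thinnings and 3 in matched cells. These counts have no share of all genes under the same alternatives beside them. The *S100a9* to *S100a8* log2 ratio, −0.41, was −0.44 in every cell, −0.37 in cells with 1000 or more genes, −0.43 and −0.37 thinned, −0.37 matched and −0.44 with equal weights.

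Low-gene over kept cells, the pair (1.88 labelled WT, 1.15 labelled KO) was 1.95 and 1.39 with a limit of 400 genes, 1.64 and 0.93 with 600, 0.61 and 0.11 for cells with fewest UMIs, 1.59 and 0.997 thinned to 500 UMIs and 2.04 and 1.20 scaled without *S100* genes. Labelled WT, it was 1.84 without the 10 cells with most UMIs. The other 4 members (1.84 and 1.41) were 1.65 and 1.14 with 600 genes, 1.27 and 0.996 for fewest UMIs, 1.48 and 1.31 thinned, and 1.99 and 1.46 without *S100* genes. They were 1.76 labelled WT without those 10 cells and 1.81 labelled KO with 400 genes. *S100a4*, low-gene over kept cells labelled KO (0.11), was −1.90 without the 10 cells with most of its UMIs and −0.58 thinned to 500 UMIs. KO over WT in kept cells, equal cluster weights turned *S100a4* (0.26) and *S100a10* (0.19), and cells with 1000 or more genes *S100a10* (0.04). For cells with fewest UMIs the direction turned for *S100a4* labelled WT (0.32), *S100a9* labelled KO (−0.072) and *S100a10* labelled KO (0.11). *S100a8*, KO over WT, was 0.0005 in every cell. The log2 CV ratio turned within clusters for *S100a4* (−0.065), *S100a6* (−0.069) and *S100a8* (0.11), at 1500 UMIs for *S100a9* (−0.069) and *S100a10* (0.11), and for *S100a10* also unthinned (0.12) and without the top 10 cells (0.052). The cause of these shifts was not tested. Leaving out shared barcodes or hemoglobin-positive cells, splitting clusters at 5000 CPM of *S100a8* and taking kept cells alone for those with little *S100a9* were chosen after seeing the data.

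With 1 pooled library per genotype, genotype, pool and library cannot be told apart. *S100a4* and *S100a10* are limited by depth, above all in low-gene cells.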
